A study of Mus musculus with 426 samples.

Results

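The cells described here are single GFP+ cells sorted from primary pancreatic tumours of 3 mice, each sequenced for RNA and DNA in one tube. They were taken by their sort label, without the cells sorted for GFP together with EpCAM and without the pooled libraries, and were kept when their RNA held at least 500 genes with a count and at least 10000 counts. Of 96 such libraries, 76 were kept, 31 from mouse 1, 18 from mouse 2 and 27 from mouse 3, among 420 single-cell libraries in the series. The 20 others were left out. The lowest totals inside the limit were 12577 counts in mouse 2 cell 11, 13546 in mouse 1 cell 21 and 14830 in mouse 2 cell 12, and the highest outside it were 9937 in mouse 1 cell 27, 9608 in mouse 1 cell 35 and 9371 in mouse 2 cell 3.

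Every mouse was a C57BL/6 male into whose pancreas 50000 KPC1199-EGFP cells in matrigel had been injected at 6 to 8 weeks of age, and tumours grew for 6 to 8 weeks before they were taken. All sorts share this line and treatment, so no group is free of tumour, and the tumour cells of the 3 mice descend from 1 injected line. Live cells were gated with Calcein violet and sorted as GFP+, GFP+EpCAM+, EpCAM+ or CD45+ cells, with CD45 marking leukocytes and EpCAM marking epithelium, and GFP+ cells also came from metastases. The question is how much the GFP+ cells of one tumour differ from each other.

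KPC lines derive from mouse pancreatic ductal tumours. Epithelial tumour cells hold keratin filaments (Krt18, Krt19) and junctions built on E-cadherin, and carry the mucin Muc1 on their free surface. In a mesenchymal state these genes are low and vimentin (Vim) is high, and cells that lay down matrix make collagens such as Col3a1 and collagen-binding proteoglycans such as lumican (Lum). Fos belongs to the immediate early genes, transcription factors that are switched on quickly by growth signals and stress.

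RNA totals ran from 12577 to 17845616 counts per cell, with a median of 1614521, and between 1528 and 18112 genes had a count. The medians by mouse were 798524, 805067 and 3059170 counts, so mouse 3 was read most deeply. By design, exonic reads were assigned to RNA and all others to DNA, and the number of genes with a count followed the DNA depth (Spearman rho 0.982 over the 76 cells, against 0.565 for RNA counts). Olfactory receptor genes, 1125 of them, give the level of such stray counts. A count was present in 16.7% of their gene and cell pairs, whereas 0.0386% reached 100 CPM (counts per 1000000 counts of the cell), against 36.7% and 5.36% for all genes. Shares of cells are therefore given at 100 CPM as well as at a count of 1.

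Vim and Fos were found in nearly all GFP+ cells, while Krt19, Lum, Col3a1 and Muc1 split them. At a count of 1 every marker was almost universal: Vim and Fos in 100% of cells in each mouse, Krt19 in 90.6% ± 1.87 (SD, n = 3 mice), Lum in 90.6% ± 11.8, Col3a1 in 94.9% ± 4.86 and Muc1 in 90.8% ± 4.88. Leukocytes, which should lack the epithelial and matrix genes, had a Krt19 count in 67.1% of CD45+ cells, Muc1 in 70.1%, Lum in 49.3% and Col3a1 in 85.8%. The median RNA depth was 784903 counts in CD45+ cells and 1614521 in GFP+ cells. Median DNA depth, which the number of genes with a count followed in GFP+ cells, was higher in CD45+ cells. It was 898867 against 601748 reads, in cells with at least 50000 DNA reads. A single count did not separate the sorts at these depths.

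Krt19, an intermediate filament protein of ductal epithelium, ranged from 0 to 2823 CPM with a median of 23.5. Its medians were 261 CPM in mouse 1, 12.9 in mouse 2 and 1.80 in mouse 3, and the highest value was in mouse 1 cell 24. At 100 CPM or more it was found in 71% of the cells of mouse 1 (Wilson 95% interval 53.4 to 83.9), 38.9% of mouse 2 (20.3 to 61.4) and 14.8% of mouse 3 (5.92 to 32.5). Mouse 1 was therefore mostly Krt19-high and mouse 3 mostly Krt19-low, and their intervals did not overlap. These intervals cover counting of cells only.

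Col3a1, a chain of fibrillar collagen, was lowest in mouse 1, where Krt19 was highest. Its median was 22.2 CPM in mouse 1, 1648 in mouse 2 and 668 in mouse 3, and single cells ran from 0 to 16132 CPM, the top value in mouse 1 cell 40. The shares at 100 CPM were 29% (16.1 to 46.6), 94.4% (74.2 to 99.0) and 77.8% (59.2 to 89.4). Mouse 1 lay below both other mice with no overlap of intervals.

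Lum, which organises collagen fibrils, was more uneven than Col3a1. Its medians were 1.77, 64.9 and 510 CPM in mice 1 to 3, and the range over cells was 0 to 10822 CPM, highest in mouse 2 cell 7. At 100 CPM it was present in 16.1%, 38.9% and 63% of cells. In mouse 2 the share with Lum was thus well below the share with Col3a1, so that many Col3a1-high cells there had little Lum.

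Muc1 was high in a minority. It reached 100 CPM in 32.3%, 38.9% and 11.1% of cells, with medians of 47.7, 15.3 and 1.88 CPM and a highest value of 5192 CPM in mouse 2 cell 12. Vim, the mesenchymal intermediate filament, reached 100 CPM in 71%, 94.4% and 88.9% of cells, with medians of 295, 1014 and 837 CPM and a range of 4.81 to 3095. Fos did so in 90.3%, 100% and 74.1%, with medians of 1520, 2544 and 720 CPM and a range of 3.10 to 12003. These last 2 genes varied in level but were rarely missing.

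**Figure D1:**
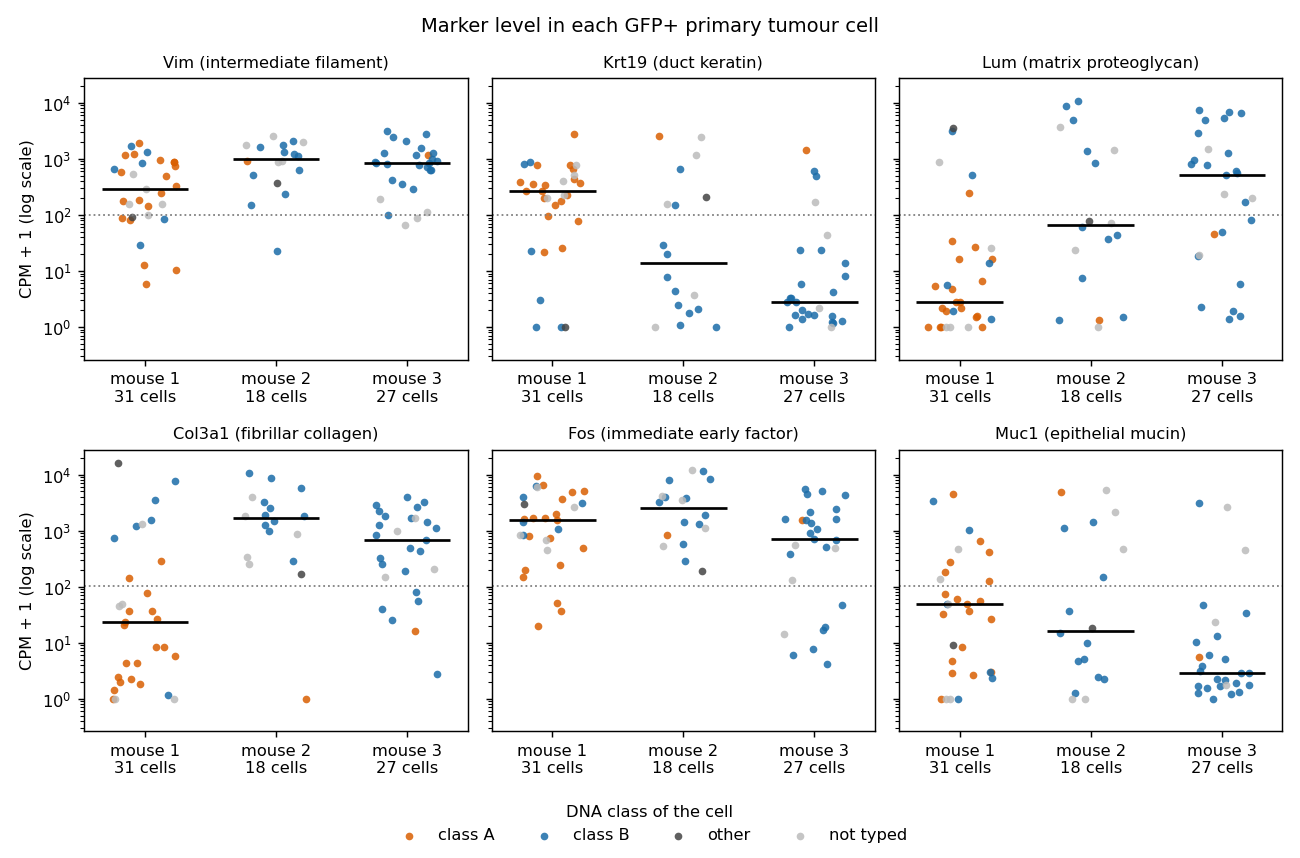
Level of the 6 markers in each of the 76 GFP+ cells, by mouse, as CPM + 1 on a log axis, with 1 point per cell, a bar at the median of each mouse, a dotted line at 100 CPM and colours for the DNA classes described in the text. Krt19 has its highest median in mouse 1 (261 CPM) and Lum its highest in mouse 3 (510 CPM), while Vim and Fos lie above the dotted line in most cells of each mouse.

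Set against the other sorts of the same tumours, the mean GFP+ share at 100 CPM lay above the mean CD45+ share for every marker: 41.6% ± 28.2 against 4.85% ± 5.01 for Krt19, 39.3% ± 23.4 against 3.33% ± 5.77 for Lum, and 67.1% ± 34 against 1.67% ± 2.89 for Col3a1. For these 3 genes, Vim and Fos the exact two-sided permutation p over mice was 0.1, the smallest that 3 against 3 mice allow, and 0.2 after Benjamini-Hochberg adjustment over 12 comparisons. Muc1 at 27.4% ± 14.5 against 11.2% ± 10.2 gave an exact p of 0.3 (adjusted 0.36). GFP+EpCAM+ cells had 84.4% ± 15.0 for Krt19, 82.8% ± 21.8 for Muc1, 10.7% ± 11.1 for Lum and 17.4% ± 15.6 for Col3a1. The exact p against them was 0.1 for Muc1 (adjusted 0.2) and 0.2 for Krt19, Lum and Col3a1 (adjusted 0.267), so no marker share passed a threshold of 0.05. With the planned count of 1, the exact p was 0.1 (adjusted 0.2) for Krt19, Col3a1 and Muc1 against GFP+EpCAM+ cells and for Krt19, Lum and Muc1 against CD45+ cells, and larger elsewhere.

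Most GFP+ cells were high either in Krt19 or in a matrix gene. Of the 76 cells, 21 had Krt19 at 100 CPM with neither Lum nor Col3a1, 39 had Lum or Col3a1 without Krt19, 12 had both and 4 had none. In the 65 cells with at least 2000 genes and 50000 counts the counts were 17, 37, 8 and 3. Among those 65, Krt19-only cells outnumbered matrix-only cells by 14 to 5 in mouse 1, whereas matrix-only cells led by 10 to 1 in mouse 2 and 22 to 2 in mouse 3. Of the 11 shallower cells, 4 were high in both. Vim did not follow this division: it reached 100 CPM in 28 of the 33 Krt19-high cells and in 44 of the 51 cells high in Lum or Col3a1.

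Relations between list scores (the mean log2(CPM + 1) over a list) were taken within each mouse, and some but not all kept 1 sign over the 3 mice. All 10 relations between scores and 12 between markers are descriptions over the cells of 1 mouse, which share libraries and differ in depth. Epithelial and fibroblast scores had a Spearman rho of -0.15, -0.66 and -0.35 in mice 1 to 3 (31, 18 and 27 cells). Krt19 and Col3a1 gave -0.40, -0.54 and -0.27, while Krt19 and Muc1 gave 0.68, 0.91 and 0.38. Col3a1 and Col1a1, the chain of type I collagen, gave 0.61, 0.75 and 0.81, but Lum and Col3a1 gave 0.66, 0.46 and -0.21. Vim was near 0 with Krt19 (0.16, -0.17 and 0.06) and with Col3a1 (0.02, 0.05 and -0.09). Depth moved with these scores: the epithelial score had a rho of -0.17, -0.54 and -0.39 with the RNA total, and the fibroblast score -0.26, 0.34 and 0.26. For the epithelial and fibroblast scores, the part of depth in their relation was not tested beyond thinning every cell to 10000 counts. There the mean rho over mice was -0.45 against -0.38 at full depth.

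**Figure D2:**
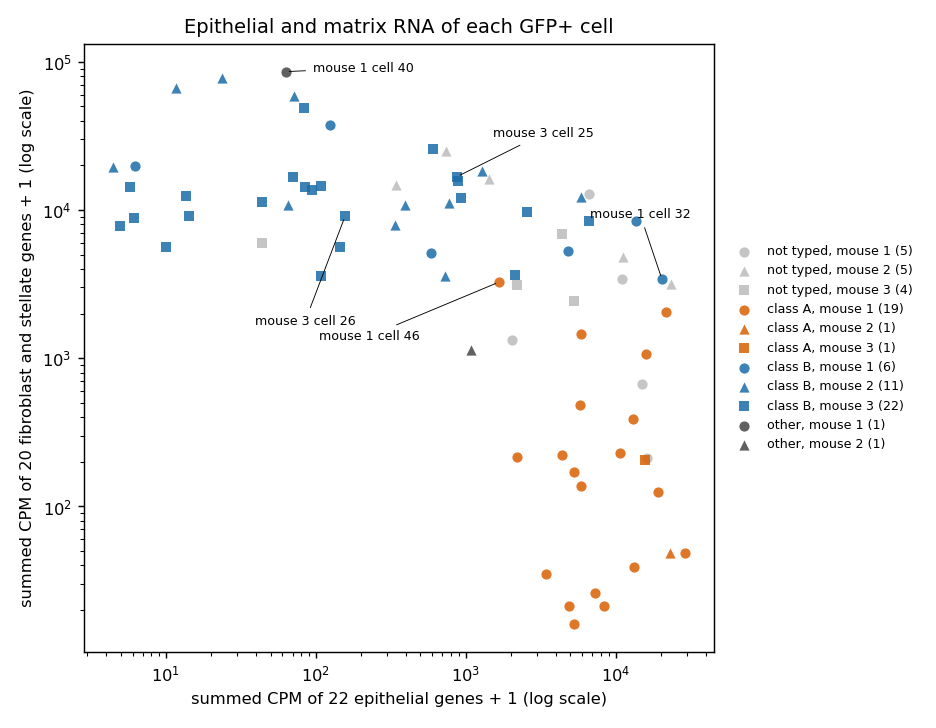
Epithelial list against fibroblast list in each GFP+ cell, both as summed CPM on log axes, each plus 1, with 1 point per cell, the colour giving the DNA class described in the text and the shape the mouse. Class A cells lie at a fibroblast sum of 3262 CPM or less and class B cells at 3420 CPM or more.

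The genes most like these scores were named by rank, over 14286 genes. With the fibroblast score, the highest mean rho over mice was that of Cthrc1 (0.68), a secreted protein of collagen-producing cells, followed by Col6a3, a type VI collagen chain, at 0.67 and the endoplasmic reticulum protein Rcn1 at 0.62, then Fstl1, Wisp1, Copz2, Rcn3 and Aspn. The lowest were Tm4sf4 (-0.55), Tpd52, Clu, Cystm1, Sdc4, Hbegf, Prr13 and Zfp706. With the epithelial score the highest were Cystm1 (0.61), Plac8 (0.59) and the sodium pump subunit Atp1b1 (0.59), then Sdcbp2, Smpd3, Parm1, Vsig1 and Dmbt1, and the lowest were Wtip (-0.57), Copz2, Tmem165, Hadhb, Tpm4, Bmp1, Mxra7 and Tead2. Cystm1 and Copz2 stood at opposite ends of the 2 rankings. Some of these ranks rest mostly on values under 100 CPM, where stray counts also fall. Tead2 reached 100 CPM in 0 GFP+ cells, Wtip in 1, Aspn and Mxra7 in 2 each, Hadhb in 4 and Copz2 in 6. Others were often high, such as Tpm4 in 66 cells and Zfp706 in 63.

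DNA of the same cells fell into 2 main profiles. In the 62 kept cells with at least 50000 DNA reads (67937 to 3255873, median 601748), the share of reads on each of 19 autosomes was divided by the median of CD45+ cells and clustered. The clustering was chosen after the DNA values had been seen. It gave 21 cells of a profile called A here, 39 of a profile B and 2 others, and 14 cells were not typed. The profile was uneven in the tumour sort: the SD of the log2 ratio over autosomes had a median of 0.353 in GFP+ cells, 0.334 in A and 0.358 in B, against 0.0773 in 53 CD45+ cells. The GFP+ median was 10.97, 2.16 and 4.73 times the CD45+ median in mice 1 to 3.

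Both profiles had low ratios on chromosomes 4, 7, 9, 10, 12, 13 and 14. Chromosome 4 had a median log2 ratio of -0.40 in A and -0.39 in B, and chromosome 12 of -0.42 and -0.44, and the 2 median profiles had a correlation of 0.745 over autosomes. They parted on chromosome 18, at 0.21 in A and -0.39 in B, on chromosome 3 at 0.61 and 0.25, on chromosome 16 at 0.21 and -0.12, and on chromosome 19 at 0.11 and 0.44. These are the values the clustering used. Chromosomes X and Y were not used: the median X ratio was 0.58 in A and -0.03 in B, and Y reads per 100000 had a median of 20.5 in A, 0.265 in B and 31.1 in CD45+ cells of these male mice. At 10 or more Y reads per 100000 stood 20 of 21 A cells and 2 of 39 B cells. In the 9 B cells without any Y read, 0 reads allow at most 0.426 to 2.21 per 100000, by counting error alone.

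**Figure D3:**
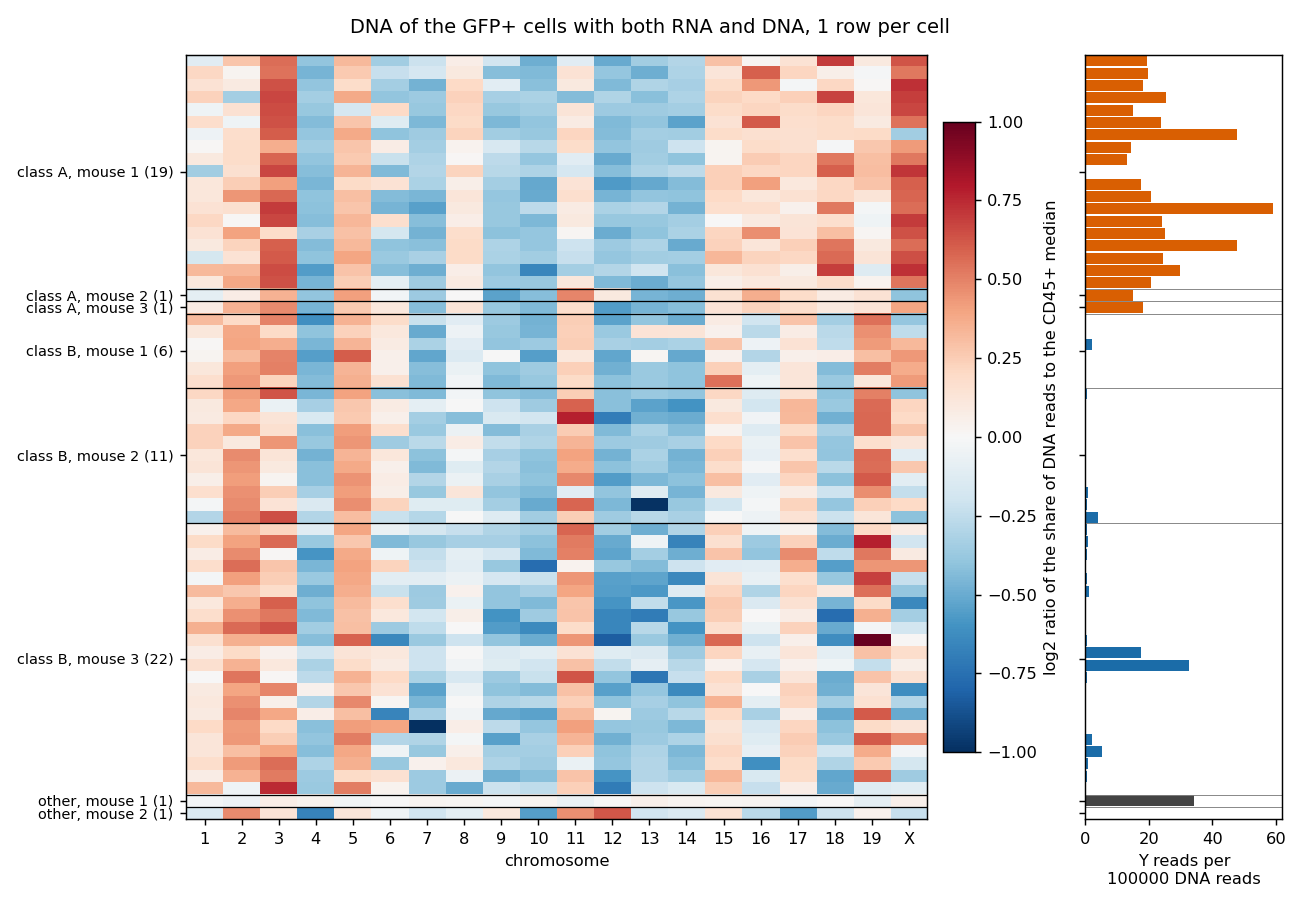
DNA of the 62 GFP+ cells typed, 1 row of colour per cell and 1 column per chromosome, showing the log2 ratio of the share of DNA reads to the CD45+ median, with bars for Y reads per 100000 DNA reads. Both profiles are blue (low) on chromosomes 4, 7, 9, 10 and 12 to 14, chromosome 18 is red in A and blue in most of B, and 20 of 21 A cells have Y bars of 10 or more.

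The profiles were unevenly spread over mice, with 19 A and 6 B cells in mouse 1, 1 and 11 in mouse 2, and 1 and 22 in mouse 3. Comparisons over all mice therefore cannot be told apart from mouse, and mouse 1, which alone had several cells of each, is given beside them. The division rests largely on chromosome 18. With average linkage and without that chromosome, the 2 largest clusters held 58 and 2 of the 62 cells, so A and B were no longer separated. With Ward linkage and without it they held 35 and 23, and only 2 cells changed between A and B. Average linkage cut into 2 clusters gave 61 cells and 1 cell, so A and B fell together there too.

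Matrix RNA was low in A and high in B, and the 2 sets of cells did not overlap, although the gap between them was narrow. The summed level of the 20 fibroblast genes was 15.0 to 3262 CPM in A, with a median of 169, and 3420 to 78003 CPM in B, with a median of 11322. In mouse 1 alone it had a median of 169 in the 19 A cells and of 6834 in the 6 B cells, lowest 3420. Split by Y reads in place of the clusters, the medians were 204 in 23 cells and 11114 in 39, with 5 of the former above the lowest of the latter and all 39 of the latter below the highest of the former, mouse 1 cell 40. With Ward linkage and without chromosome 18 the sets overlapped too, 2 A cells lying above the lowest B cell and 19 B cells below the highest A cell. No p is given, because cells of 1 mouse are not replicates. A cells were read more deeply for DNA (median 1024150 against 519366 reads) and less deeply for RNA (1182460 against 3087450 counts), and the part of depth in the difference was not tested.

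By gene, the share of cells at 100 CPM differed by 50 points or more in favour of B for 7 of 20 fibroblast genes over all mice, against 0.331% of the 21126 genes compared, and for 5 of 20 within mouse 1, against 0.379%. The 21126 were not filtered by expression, and genes that never reach 100 CPM lower these percentages. None of the 20 fibroblast genes was 50 points higher in A. Col3a1 was at 100 CPM in 2 of 21 A cells and 33 of 39 B cells, and within mouse 1 in 2 of 19 and 5 of 6. Sparc, a matrix protein that binds collagen, stood at 3 and 37 cells, and Serpinf1, a secreted serpin, at 2 and 33. Col1a1 was at 0 and 30, and Serpinh1, the collagen chaperone, at 0 and 32. Lum was at 1 and 21 and Dcn, the proteoglycan decorin, at 3 and 24, but in mouse 1 they were at 1 of 19 against 2 of 6 and 3 of 19 against 2 of 6. The receptors Pdgfra and Pdgfrb were each at 100 CPM in 0 A and 11 B cells, Fap in 0 and 9, Acta2 in 0 and 7, and Thy1 in none of either.

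Epithelial genes went the other way with more overlap. The summed level of the 22 epithelial genes was 1672 to 29086 CPM in A, with a median of 7282, and 3.43 to 20388 in B, with a median of 124. Within mouse 1 the medians were much closer, at 5901 in A and 2702 in B. A share 50 points higher in A was found for 3 of 22, namely Krt7, Krt18 and Krt19, against 0.118% of all genes, and for 0 of 22 within mouse 1, against 0.0899%. Krt19 was at 100 CPM in 17 of 21 A and 6 of 39 B cells, in mouse 1 in 15 of 19 and 2 of 6. Krt18, its partner keratin in simple epithelium, was in 21 of 21 and 16 of 39. Muc1 was in 7 and 6 cells, Epcam in 5 and 2, and Cdh1, which encodes E-cadherin, in 7 and 2. Keratins thus marked the A cells more often than junction genes did. Of 16 genes of the classical pancreatic tumour type, Ctse, Onecut2 and Lgals4 were 50 points higher in A over all mice and 0 within mouse 1.

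The mesenchymal transition list separated the profiles less. Its summed level was 278 to 9224 CPM in A (median 1280) and 995 to 11500 in B (median 3765), with medians of 1222 and 2651 within mouse 1. Of its 19 genes 1, the matrix glycoprotein Fn1, was 50 points higher in B over all mice, against 0.331% of all genes compared. Fn1 was at 100 CPM in 6 of 21 A and 38 of 39 B cells. Vim was at 100 CPM in 16 A and 35 B cells. Most of the transcription factors of the transition named here were seldom high: Zeb1 in 1 A and 6 B cells, Snai1 in 0 and 9, Snai2 in 0 and 4, Twist1 in 0 and 3, and Twist2 in 0 and 8. Prrx1 was more common in B, at 100 CPM in 1 A and 16 B cells. N-cadherin (Cdh2) reached 100 CPM in none of the 76 cells. Jun, an immediate early factor, was at 100 CPM in 11 of 11 B cells of mouse 2 and 22 of 22 of mouse 3 but in 1 of 6 of mouse 1, where 1 of 19 A cells had it. That difference ran with mouse.

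**Figure D4:**
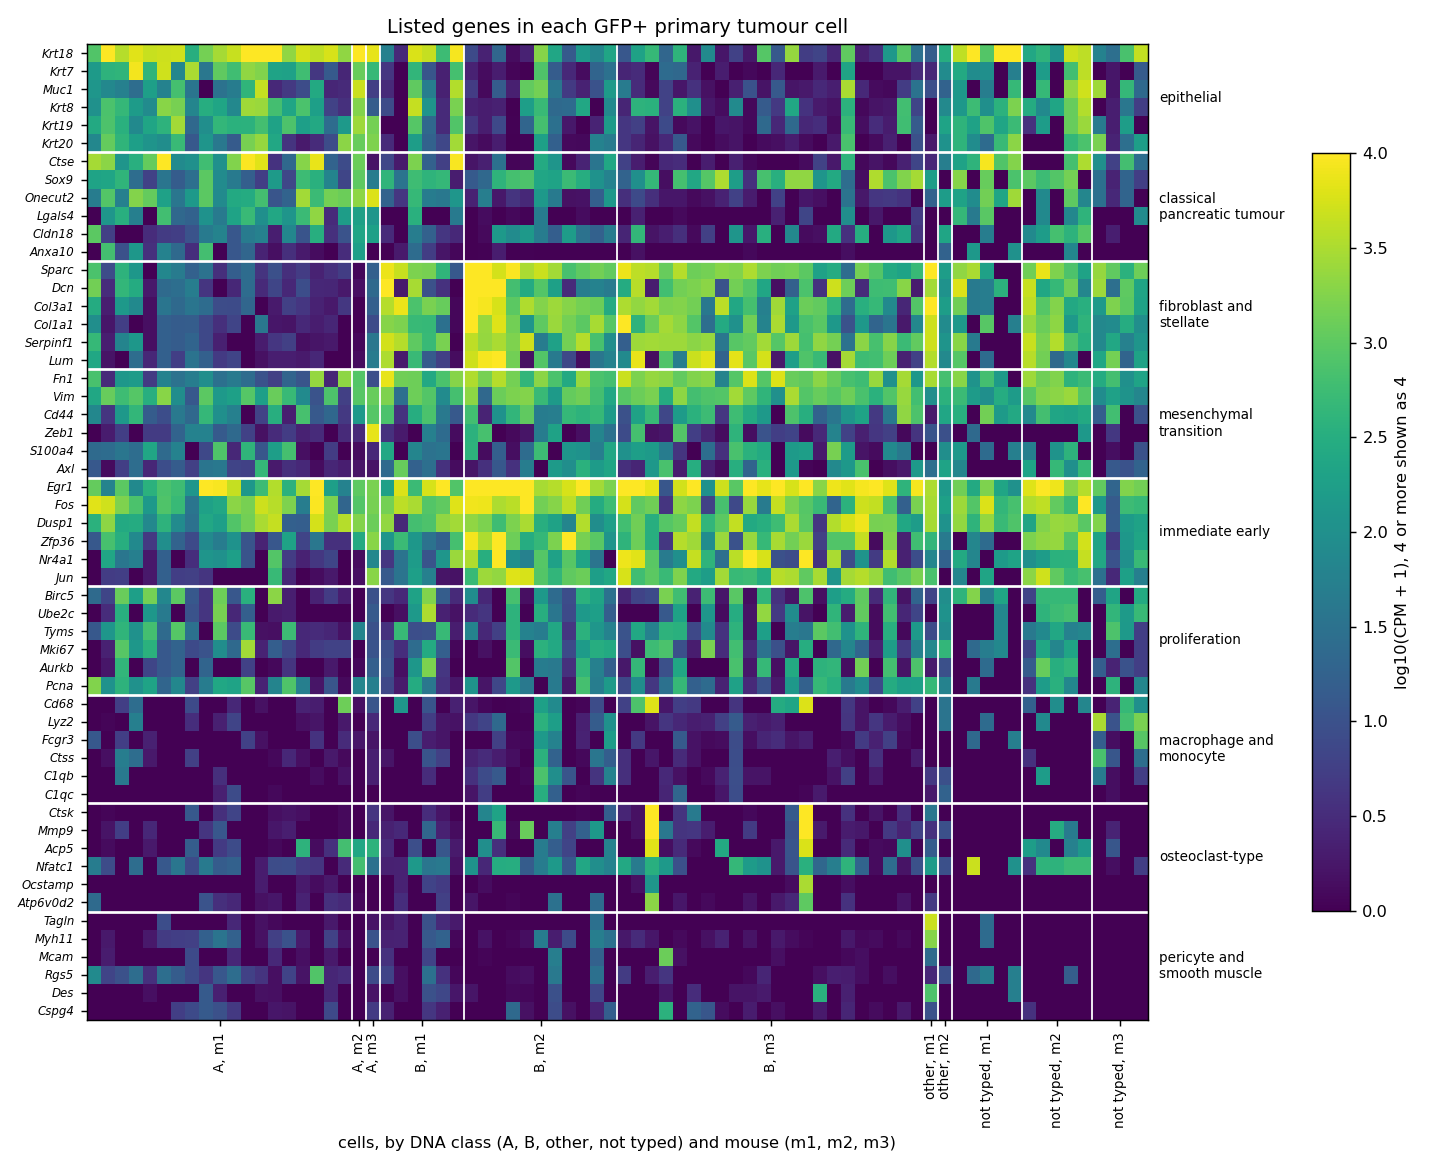
Levels of up to 6 genes from each of 9 lists in the 76 GFP+ cells, as log10(CPM + 1) with values of 4 or more shown as 4. Each column is a cell, grouped by DNA class and mouse (m1 to m3), and the fibroblast genes are bright in B and dark in most A cells, while Krt18 is bright in all A cells.

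Single cells departed from these patterns. Mouse 1 cell 32 had a B profile (chromosome 18 at -0.27, 0.224 Y reads per 100000) with Krt19 at 807 CPM, Krt18 at 8678 and Muc1 at 3416, while Lum stood at 0.371 and Col3a1 at 0.186. Its fibroblast sum of 3420 CPM came from Pcolce (1910), which enhances procollagen processing, Col6a1 (1278) and Fbln1 (218). Mouse 3 cell 38, also B, combined Krt19 at 501 CPM and Muc1 at 3132 with Lum at 2873. Mouse 1 cell 46, an A cell, had the highest fibroblast sum of that profile, from Dcn (1383), Sparc (738) and Serpinf1 (473). Mouse 3 cell 4, the only A cell of that mouse, had Krt19 at 1437 CPM together with Zeb1, a repressor of epithelial genes, at 7030 CPM. High Krt19 and high matrix genes occurred together in 12 of the 33 Krt19-high cells, as counted above, and no doublet caller was run.

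Genes of the pericyte and smooth muscle list or the osteoclast-type list were highest in 3 GFP+ cells. Mouse 1 cell 40 had a flat DNA profile (SD 0.0393, 34.1 Y reads per 100000), the highest fibroblast sum at 85743 CPM, Krt19 at 0 and the smooth muscle genes Tagln at 4774, Acta2 at 3225 and Myh11 at 1844 CPM. Mouse 3 cells 25 and 26 had osteoclast-type sums of 32607 and 40037 CPM, with the collagen protease Ctsk at 11884 and 19194, Mmp9 at 11015 and 9680 and the phosphatase Acp5 at 6601 and 5862. They were the 2 B cells with 10 or more Y reads per 100000, at 17.5 and 32.6, and their DNA profile was shallower, with slopes of 0.48 and 0.45 on the B profile where the median B cell had 1.014. Their fibroblast sums were 16762 and 9074 CPM. Pan-leukocyte sums were 3019 and 2457 CPM and macrophage sums 6576 and 6284, where the medians of all kept cells were 41.9 and 13.6. The macrophage gene Cd68 was at 6370 and 6252 CPM, but Ptprc, which encodes CD45, was at 1.60 and 1.35 CPM. Without these 3 cells, 21 had Krt19 only, 36 a matrix gene only, 12 both and 4 neither.

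Other lists were low in most cells. The summed level reached 1000 CPM for pan-leukocyte genes in 4 of 76 cells (median 41.9, highest 3781), for macrophage genes in 7 (median 13.6), for osteoclast-type genes in 5, for pericyte and smooth muscle genes in 2 and for mesothelial genes in 1. Endothelial, acinar, islet and erythroid sums reached it in none, and Ptprc and Pecam1, an endothelial adhesion molecule, were below 100 CPM in every cell, at most 96.6 and 24.3. Ptprc is a weak marker at this level, since 28.6% of CD45+ cells reached 100 CPM (median 43.7). As for the label of tumour cells, 60 of the 62 typed cells had profile A or B and mouse 1 cell 40, with the highest matrix sum, had a flat one. Of the cells with a macrophage sum of at least 1000 CPM, mouse 3 cells 18, 21 and 30 were among those not typed. Mouse 1 cell 56 had profile A, and mouse 2 cell 31 and mouse 3 cells 25 and 26 had profile B. Cells 25 and 26 had the shallower profile given above, and mouse 3 cell 18 had the highest pan-leukocyte sum. The part of cells of other types in the matrix RNA was not tested beyond these values.

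Some genes owed most of their summed CPM to 1 cell. Of 1726 genes with a mean of at least 100 CPM, 73 (4.23%) had 50% or more of their summed CPM in a single cell, and 17 had 90% or more. The top cell of a gene held a median of 14%, with quartiles of 9.74 and 22.2, where an even spread would give 1.32%. Rps6ka3, a growth signal kinase, was the extreme case: mouse 3 cell 30 had 571433 CPM, the next cell 358, and the first held 99.8% of the sum. Itm2a had 11735 CPM in mouse 1 cell 40 and at most 35.04 elsewhere. In mouse 3 cell 18, Srsf7, a splicing factor, took 341847 CPM, Os9 90086, and Clec7a, a myeloid receptor for fungal glucan, 9071, in the cell that was also highest for pan-leukocyte genes.

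A few libraries held many of these genes. Mouse 1 cell 21, a shallow library with 13546 counts, was the top cell of 20 of the 73, among them Tas2r117, Actn2, Olfr1038-ps, Spg11, Tbck, Jade3, Tecpr2 and Cenpu of the 15 most concentrated. Without it 54 of 1725 genes qualified, but among the 65 deeper cells 71 of 1722 still did. Mouse 1 cell 48, with 426340 counts, was the top cell of 15 genes, including Ttc39b, mouse 1 cell 55, with 2847353 counts, of 7 and mouse 3 cell 21 of 5, and Palmd had its peak in mouse 1 cell 52. By summed counts 74 genes passed 50% and 4 passed 90%.

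Over all 76 cells no single cell held so much of a marker's CPM: the top share was 4.93% for Vim, 6.87% for Fos, 12.5% for Krt19, 13.1% for Lum, 15.0% for Col3a1 and 15.5% for Muc1. By counts over all cells, which weight deep cells more, it was 15.3% for Vim, 29.2% for Fos, 40% for Krt19, 39.4% for Lum, 34.5% for Col3a1 and 32.3% for Muc1. Within 1 mouse the CPM share was higher, except for Col3a1 in mouse 3 (13.8%). In mouse 3 one cell held 50.7% of the Krt19 CPM and another 48.8% of the Muc1 CPM. Mouse 1 cell 40 held 49% of the Col3a1 CPM of its mouse. By counts the share within 1 mouse was higher in some cases and lower in others, such as 13.2% for Vim in mouse 3. Mouse 2 cell 15, the only A cell of its mouse, with Krt19 at 2590 CPM, supplied 16712 of the 17305 Krt19 counts of mouse 2 (96.6%). Mouse 3 cell 38 supplied 15301 of the 15796 Muc1 counts of mouse 3 (96.9%), and mouse 1 cell 32 supplied 62.4% of those of mouse 1. Mouse 2 cell 29 held 67% of the Lum counts of its mouse. The sum of Krt19 in mouse 2 and that of Muc1 in mouse 3 thus came almost whole from 1 cell, whereas the top cell held 36% of the Krt19 counts and 18.2% of the Lum counts of mouse 3.

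**Figure D5:**
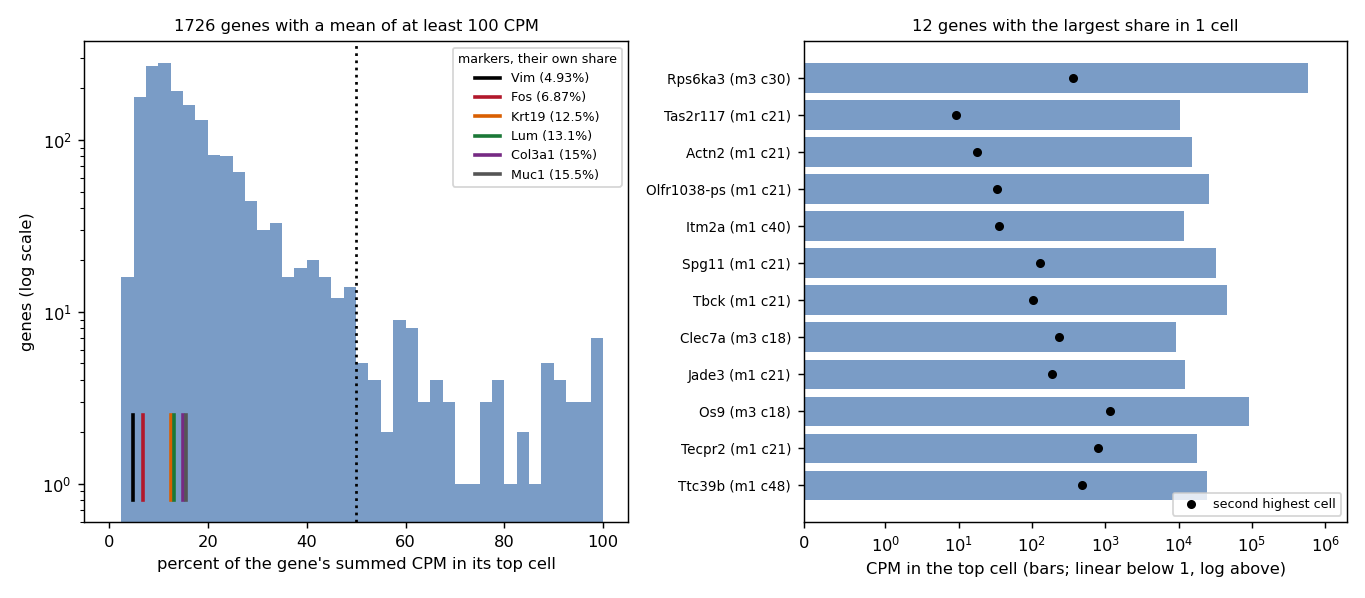
Left, the number of genes (log axis) by the percent of the summed CPM in the top cell, for 1726 genes with a mean of at least 100 CPM, with lines for the 6 markers and a dotted line at 50%. Right, CPM of the top cell (bars) and of the second highest (points) for the 12 most concentrated genes, with mouse (m) and cell (c) in the label and an axis linear below 1 and logarithmic above, where Rps6ka3 has 571433 CPM in 1 cell and 358 in the next.

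Gene lists differed in how far they rested on 1 cell. The median top share was 85.4% for pericyte and smooth muscle genes, with 5 of 5 genes at 50% or more, 54.4% for macrophage genes (4 of 5) and 51.6% for osteoclast-type genes (4 of 8). It was 19.1% for fibroblast genes (3 of 18), 20.4% for epithelial genes (0 of 12), 11.4% for immediate early genes and 8.45% for housekeeping genes. These values cover list genes whose mean reached 10 CPM, and over all 7874 genes at that level the median top share was 23.2%, and 12.2% of genes had 50% or more in 1 cell. The fibroblast list, at 3 of 18, was thus near the background. The most variable genes among the 301 with a mean of at least 100 CPM that were detected in 20 to 80% of cells were spread over more cells: Ugt2b5, a glucuronosyltransferase, had an SD of 4.29 on the log2(CPM + 1) scale and 100 CPM in 16 cells, and Sult1c2, Col6a2, Tgtp2, Ptn, Tspan8, Rcan1, Rcn3, Cd74, Col1a2, Maged1, Socs3, Mfap4, Anxa8 and Car2 followed.

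Counts summed per mouse were set against those of CD45+ and GFP+EpCAM+ cells, and deep cells weigh more in them. The 3 deepest GFP+ cells held 38.3%, 64.8% and 23.4% of the summed counts of mice 1 to 3. Against CD45+ cells, edgeR's quasi-likelihood test called 37 of 19703 genes higher in GFP+ cells (0.188%) and 124 lower (0.629%) at a Benjamini-Hochberg adjusted p of 0.05. Col3a1 was at 1016, 3689 and 1069 CPM in the GFP+ sums and 3.88, 6.21 and 19.96 in the CD45+ sums, a log2 difference of 7.36 (SE 1.69, adjusted p = 0.0309). Lum was at 209, 2815 and 1640 against 2.49, 4.59 and 6.87 CPM, a log2 difference of 8.32 (SE 1.84, adjusted p = 0.0256). The groups did not overlap for either gene. Without mouse 2 or without mouse 3, neither gene passed the test, and the count of higher genes was 6 and 2.

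Of the 20 fibroblast genes 8 rose against CD45+ cells: Col3a1, Col6a1, Dcn, Lum, Pcolce, Postn, Serpinf1 and Sparc. With the mouse as a block, which pairs the sorts, Postn no longer passed (log2 difference 7.83, edgeR adjusted p = 0.137). The median log2 difference of the list was 6.76, against -0.20 over all genes. Postn, which encodes the matrix protein periostin, owed 98.1% of its counts to mouse 2 cell 29. Its sums were 53.1, 1589 and 0.261 CPM, and with each cell weighted alike its log2 difference was -0.16. Mfap4, an elastic fibre protein outside the list, was at 0.449, 3813 and 324 CPM. Both were uneven between mice although they passed.

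None of the 21 epithelial genes tested passed against CD45+ cells, and Krt19 differed by 0.40 (SE 1.18, adjusted p = 0.875 by edgeR). Krt19 was at 395, 232 and 91.8 CPM in the GFP+ sums and 4.50, 352 and 11.2 in the CD45+ sums. The CD45+ sum was the higher only in mouse 2. Of 56 single CD45+ cells, 3 reached 100 CPM of Krt19, with a highest value of 6261 CPM. Of 11 pan-leukocyte genes 5 fell (Cd52, Fcer1g, Lcp1, Ptprc and Srgn), and of 11 macrophage genes 7 fell. C1qa, a complement subunit made by macrophages, was at 0.0236, 0.107 and 0.284 CPM in GFP+ sums and 335, 842 and 383 CPM in CD45+ sums (adjusted p = 0.00558 by edgeR). Of 9 heat shock genes only Hspd1 rose.

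Against GFP+EpCAM+ cells no gene passed edgeR's test in either direction, while 1250 genes were higher and 752 lower at an unadjusted p under 0.05. DESeq2 called 465 higher and 380 lower, and limma with each cell weighted alike called 29 and 30. Muc1 was at 696, 682 and 187 CPM in GFP+ sums and 878, 10488 and 5222 in GFP+EpCAM+ sums, a log2 difference of -3.96 (SE 1.014, adjusted p = 0.275 by edgeR). Krt19 stood at -2.86 (SE 1.26, adjusted p = 0.404) and Col3a1 at 3.49 (SE 1.41, adjusted p = 0.340) by the same test. The epithelial list had a median of -3.34 and the fibroblast list of 2.49, against 0.23 over all genes. In that comparison the choice of test decided whether any gene was called.

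GFP+ cells of 1 mouse were about as alike as those of the other GFP sorts. Genes were kept when detected in a minimum share of the cells of a sort, so the gene sets differed between sorts. The median Spearman correlation over these genes between cells of a mouse, each thinned to 10000 counts, was 0.221, 0.229 and 0.243 (mean 0.231 ± 0.0112, SD, n = 3). It was 0.221 ± 0.0184 in GFP+EpCAM+ cells (exact permutation p = 0.4, adjusted 0.533) and 0.217 ± 0.0504 in GFP+ cells of the peritoneum (exact p = 0.7, adjusted 0.7). EpCAM+ cells had 0.120 ± 0.0526 and CD45+ cells 0.117 ± 0.063, each with an exact p of 0.1, the smallest possible, and 0.2 adjusted over 4 comparisons. In mouse 1, pairs of A cells had a median of 0.201 over 171 pairs, pairs of B cells 0.174 over 15, and mixed pairs 0.180 over 114. Cells of like profile were thus about as alike as cells of unlike profile, over genes detected in a minimum share of these mouse 1 cells.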

How the data were processed

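Single cells of 3 mice were sorted by flow cytometry, and RNA and DNA reads of each were separated by exonic position, per the labels. The deposited RNA values are expected counts per gene, 97.4% of them whole, and the deposited DNA values are counts of reads in 5000 genome bins. The submitters' processing notes name STAR, kallisto, Bowtie 1.0 and mm9, and their roles are not given in the sources used here. Spike-ins (92 names) and 4 repeated symbols were left out, leaving 24424 genes. CPM is the count per 1000000 of a cell's gene counts. The 669 pairs of kept cells within a mouse were compared and no duplicate was found, and 2 pairs of peritoneal libraries that differed by less than sampling noise were counted as 1 cell each.

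The replicate is the mouse, and p-values measure the spread between 3 animals. Expected counts were rounded, summed per mouse and sort over 4 primary sorts, filtered, scaled by TMM and tested with edgeR 4.0.16 in R 4.3.3, and limma 3.58.1 and DESeq2 1.42.0 served as alternatives. Scripts were tested on simulated data. Mouse numbers mark the same animal, so they pair the sorts. The correlation of same-mouse deviations was 0.298, 0.0291 and 0.296 with GFP+EpCAM+ cells and 0.235, 0.0325 and 0.048 with CD45+ cells. Shares and similarities were compared by exact permutation in scipy 1.17.1, which took the sorts as independent and did not use the pairing by mouse.

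DNA ratios used 4730 autosomal, 267 X and 3 Y bins and CD45+ cells as reference. Classes are average-linkage clusters of the correlation between profiles, 4 in number, chosen after seeing the data. Named genes are the 6 markers, the members of each list with the highest mean, the 15 most concentrated and 15 most variable genes, the 8 nearest and farthest correlates, and the 8 largest changes each way. Members, lists and tests were chosen with earlier results of these data known. A gene that this rule names is not reported here. Serpinh1, the genes outside the lists that are compared between A and B, and the cells described singly were chosen after their values were seen. Alternatives were other detection limits, thinning, filters, scalings, leaving out mice or cells, and other clusterings.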

Additional observations from a re-analysis of the deposited data

Results flagged for a closer look

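Pooled libraries of GFP+ cells, which no comparison uses, were more than 10 times above the pooled CD45+ library of mouse 1 for several markers. The labels of the mouse 1 library disagree, since its title names GFP while its marker label names EpCam, so its sort is uncertain. That library had Vim at 499.7 CPM, Krt19 at 641.9 and Fos at 1141. The pooled GFP+ library of mouse 2 had Vim at 837 CPM, Krt19 at 373, Lum at 959.9, Col3a1 at 3298 and Fos at 1952. The pooled CD45+ library had Vim at 41.3 CPM from 5 counts, Krt19 at 0, Lum at 49.5, Col3a1 at 49.5 and Fos at 74.3, so its own values rest on few counts. Lum at 23.6 and Col3a1 at 174 CPM in mouse 1 did not pass that margin.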

How the results depend on the processing

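With the mouse as a replicate block, edgeR called 0 genes higher and 0 lower against GFP+EpCAM+ cells, and 40 higher and 102 lower against CD45+ cells. The pairing ended the call for Postn (7.83), Thbs2 (6.47), Mxra8 (7.27), Ppbp (-10.68) and Fcgr4 (-10.59) and made one for Muc1 (3.61). Against GFP+EpCAM+ cells the genes called higher were 1 without TMM, 465 by DESeq2, 29 by limma with cells weighted alike, 2 without the deepest cells and 1 with these 2 sorts alone, and 0 to 3 when a mouse was left out. Genes called lower were 380 by DESeq2, 30 by limma, 2 with these 2 sorts alone and 0 to 2 without a mouse. Vim turned to -0.063 without mouse 2 and ranged to 0.778 without another mouse. Against CD45+ cells 60 were higher without TMM, 989 by DESeq2, 541 by limma and 2 to 27 without a mouse, and 912 were lower by DESeq2, 237 by limma, 221 without the deepest cells and 17 to 130 without a mouse. Krt19 turned to -0.61 without mouse 1 and ranged to 4.52, and Postn to -0.16 by limma.

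At a count of 10 the mean shares of cells were 92.3% for Vim, 53.3% for Krt19, 52% for Lum, 73.6% for Col3a1, 96.5% for Fos and 49.9% for Muc1. At 10 CPM they were 97.8%, 55.6%, 63.1%, 81.9%, 96.3% and 47.6%, at 100 CPM 84.8%, 41.6%, 39.3%, 67.1%, 88.1% and 27.4%, and thinned to 10000 counts 88.9%, 39.2%, 47.2%, 71.5%, 89.4% and 31.7%, in the same order. Genes concentrated in 1 cell were 12.2% at a mean of 10 CPM and 4.33% to 9.24% without a mouse. The similarity difference turned to -0.0058 against GFP+EpCAM+ and -0.00098 against peritoneal cells in the deeper cells, and to between -0.00070 (without mouse 3) and 0.0444 against peritoneal cells when a mouse was left out. The cause was not tested. Without chromosome 18 and with 6 clusters the largest cluster held 56 of the 62 typed cells, so A and B were no longer separated. The number of mice limits every test, and stray counts limit detection at low levels.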

Other observations

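The pooled GFP+ libraries also had DNA. That of mouse 1, whose sort is uncertain because its title names GFP while its marker label names EpCam, had 24 Y reads per 100000 and a chromosome 18 log2 ratio of 0.29, and that of mouse 2 had 7.01 Y reads, a chromosome 18 ratio of -0.19 and a chromosome 19 ratio of 0.49. The share of cells with at least 10 Y reads per 100000 was 37.1% in GFP+ cells of the primary tumour, 55.6% in GFP+EpCAM+, 59.1% in EpCAM+, 94.3% in CD45+ and 5.41% in GFP+ cells of the peritoneum, over the cells of all mice and with no test. The order differed by mouse: GFP+ cells had 73.1%, 7.69% and 13% in mice 1 to 3, GFP+EpCAM+ cells 70%, 62.5% and 33.3%, and EpCAM+ cells 50%, 83.3% and 50%, so that GFP+ cells were above both in mouse 1 and below both in the others.

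Among B cells, the immediate early list had a median sum of 19323 CPM, against 7494 in A cells, and within mouse 1 it was 10461 against 5741. The proliferation list had 1223 in B against 569 in A over all mice, but 538 against 721 within mouse 1. Of 16 immediate early genes, Jun, Junb and Zfp36 were 50 points higher in B over all mice, against 0.331% of all genes compared. Within mouse 1, 1 of the 16 was so, against 0.379%. Over all mice the profile cannot be told apart from mouse. Outside the lists, the genes named next had the largest differences in favour of A and were chosen by them. Tm4sf4 was at 100 CPM in 21 of 21 A cells and 6 of 39 B cells, Plac8 in 20 and 5, and Gsta4 and Lgals2 in 19 each against 5 and 4. Within mouse 1, with 19 A and 6 B cells, the counts were 19 and 2 for Tm4sf4, 18 and 2 for Plac8, 17 and 2 for Gsta4 and 17 and 1 for Lgals2. The ranking that chose these genes used the mouse 1 difference too, so these counts are no separate check.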
